A study of Homo sapiens with 6 samples.

Results

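The MHC class I presentation genes described here are 9 genes taken by symbol from 20474 annotated genes: HLA-B, HLA-C, HLA-E, B2M, TAP1, TAP2, TAPBP, PSMB8 and PSMB9. All 9 were found, with 1 row each. They were measured by polyA RNA sequencing in HCT116, a human colorectal cancer cell line, 48 h after transfection of an siRNA against POU2F1 (siPOU2F1, 3 libraries) or of a non-targeting siRNA (sicontrol, 3 libraries). The cells are labelled WT in sicontrol and POU2F1 knockdown in siPOU2F1, and nothing else separates the groups in the labels, which name neither the siRNA sequences nor the number of siRNAs used. POU2F1 encodes OCT1, a transcription factor that binds the octamer sequence. The comparison asked how transcript levels differed once POU2F1 was lowered, within a study of fragments derived from tRNA. Nothing in the labels tells whether libraries of a group were separate cultures, so the p-values reflect the spread from library to library, which may be technical.

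MHC class I molecules show peptides from inside the cell to CD8 T cells. Proteasomes cut proteins into peptides, and the immunoproteasome does so with the interferon-inducible catalytic subunits PSMB8, PSMB9 and PSMB10 in place of PSMB5, PSMB6 and PSMB7. The TAP1 and TAP2 transporter carries peptides into the endoplasmic reticulum, where tapasin, the product of TAPBP, helps load them onto a heavy chain (such as HLA-B, HLA-C or HLA-E) bound to beta-2-microglobulin, the product of B2M. HLA-B and HLA-C are classical heavy chains. HLA-E mainly presents peptides from the leader sequences of other class I molecules and is read by NKG2A and NKG2C receptors of natural killer cells. In tumours of the colon, loss of class I presentation is known as a route of escape from T cells.

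The genes lie on chromosome 6, except B2M, which lies on chromosome 15 from 44711487 to 44718877 on the plus strand (GRCh38, GENCODE release 29, all coordinates 1-based). HLA-C spans 31268749 to 31272130 and HLA-B is annotated from 31269491 to 31357188, a span that reaches into HLA-C, both on the minus strand, and HLA-E spans 30489467 to 30494205 on the plus strand. The antigen processing genes sit close together, with TAP2 at 32821833 to 32838780, PSMB8 at 32840717 to 32844703 and TAP1 at 32845209 to 32853978 on the minus strand, and PSMB9 at 32844136 to 32859585 on the plus strand. TAPBP spans 33299694 to 33314387 on the minus strand. In the deposited tables HLA-B is ENSG00000234745, HLA-C ENSG00000204525, HLA-E ENSG00000204592, B2M ENSG00000166710 and TAPBP ENSG00000231925. TAP1 is ENSG00000168394, TAP2 ENSG00000204267, PSMB8 ENSG00000204264 and PSMB9 ENSG00000240065. The RefSeq starts of TAP1 and PSMB9 are 488 bases apart, and from those starts these genes are transcribed away from each other. The longer GENCODE span of PSMB9 given here encloses TAP1 and reaches into PSMB8, both on the opposite strand.

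Because the siRNA target binds the octamer, the 250 bases before the RefSeq starts were read (GRCh38.p14). Windows were matched for 8 of the 9 genes, HLA-E being the gene without a match, with 10 windows in all. The windows of HLA-B, HLA-C, B2M and TAP1 are shown because they cover the abundant heavy chains, their partner and the shared TAP1 and PSMB9 region. Capitals mark matches, on either strand, to the octamer ATGCAAAT, to the interferon regulatory factor core TTTCNNTT, to an NF-kB type core GGGGATTC, to TGACG, the core of the X2 box, and to CCAAT, the core of the Y box. Overlapping matches run together.
HLA-B (chr6:31357180-31357429, minus strand): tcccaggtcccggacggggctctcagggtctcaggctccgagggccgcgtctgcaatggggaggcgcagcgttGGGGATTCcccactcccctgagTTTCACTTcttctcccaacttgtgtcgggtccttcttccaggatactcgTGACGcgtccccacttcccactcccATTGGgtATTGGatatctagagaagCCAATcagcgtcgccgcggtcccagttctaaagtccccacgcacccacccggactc
HLA-C (chr6:31272093-31272342, minus strand): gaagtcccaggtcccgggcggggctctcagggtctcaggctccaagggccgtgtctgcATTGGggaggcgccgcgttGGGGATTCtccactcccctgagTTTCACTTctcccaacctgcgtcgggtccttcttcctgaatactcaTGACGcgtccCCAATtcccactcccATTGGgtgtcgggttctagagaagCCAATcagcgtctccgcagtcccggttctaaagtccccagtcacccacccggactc
B2M (chr15:44711267-44711516, plus strand): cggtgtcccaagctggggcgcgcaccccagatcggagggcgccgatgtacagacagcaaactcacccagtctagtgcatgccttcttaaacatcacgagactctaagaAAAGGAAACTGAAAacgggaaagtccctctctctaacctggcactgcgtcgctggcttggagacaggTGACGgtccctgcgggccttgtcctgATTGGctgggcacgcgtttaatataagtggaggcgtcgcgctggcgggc
TAP1 (chr6:32853705-32853954, minus strand): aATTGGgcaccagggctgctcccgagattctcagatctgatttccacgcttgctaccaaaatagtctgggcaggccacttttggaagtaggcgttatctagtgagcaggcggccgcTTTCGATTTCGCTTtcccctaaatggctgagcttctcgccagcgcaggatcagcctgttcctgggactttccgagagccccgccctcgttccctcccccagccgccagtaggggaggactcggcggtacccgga

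The octamer was found in the windows of 0 of the 8 genes and in 1.63% of 35116 windows of the same length over all genes. The NF-kB type core was in 2 of the 8, HLA-B and HLA-C, against 0.772% of all windows. The interferon regulatory factor core was in 6 of the 8 against 20.3% of all windows, TGACG in 6 against 21.2%, and CCAAT in 5 against 32.0%. The windows of TAP1 and PSMB9 overlap, and the CCAAT match counted for each is the same site. A gene with more than 1 window was counted once, whereas the shares over all genes are of windows. HLA-B and HLA-C were 89.0% identical over 254 aligned columns. These matches describe the letters in short windows and say nothing of whether a factor binds there.

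The knockdown and the libraries were checked first. POU2F1 measured 1.87, 1.69 and 1.73 FPKM in siPOU2F1 replicates 1 to 3, against 4.16, 3.60 and 4.26 FPKM in sicontrol replicates 1 to 3, and it fell to 44.0% of the control mean (log2 fold change -0.99, SE 0.14, limma adjusted p = 0.0333). FPKM are fragments per transcript length and per library size, and fold changes here are differences of log2(FPKM + 0.5), which understates changes of low genes. The knockdown missed the threshold, at 0.114 to 0.222, when any library but siPOU2F1 replicate 3 was left out. In siPOU2F1 replicate 3 the profile over all tested genes stood apart from its group: it correlated at r = 0.977 with sicontrol replicate 2 and at r = 0.946 and r = 0.948 with siPOU2F1 replicates 1 and 2, which correlated with each other at r = 0.989 (across genes, which are not independent). Values without it are given where they change a call. Read depth is not given by FPKM values, and low values put the other libraries at 0.778 to 0.973 of the depth of sicontrol replicate 1. This is a rough estimate, since the ratio used was shared by only 8 to 16 of the 403 to 515 low genes per library. The epithelial marker EPCAM averaged 215 ± 7.38 FPKM in siPOU2F1 and 213 ± 7.45 FPKM in sicontrol (SD, n = 3 each), while KRT20 reached at most 0.231 FPKM in any library. The summed epithelial markers were at 3191 to 4410 FPKM in siPOU2F1 and 2219 to 2962 FPKM in sicontrol, mostly through the keratins KRT18 and KRT8, which were not called (limma adjusted p = 0.0870 and 0.149). Without siPOU2F1 replicate 3, KRT18, KRT8 and VIL1 were called higher, 3 of 6 tested epithelial markers (limma adjusted p = 0.0138, 0.0147 and 0.0356), where 9.48% of all tested genes were. So was COL1A1, the 1 fibroblast or endothelial marker tested (0.0362), in a list whose summed level was 2.56 to 4.32 FPKM in siPOU2F1 and 2.84 to 3.56 FPKM in sicontrol. The part of these markers in other results, HLA-C in that same fit included, was not tested. Of 12 leukocyte markers, PTPRC, CD3D and MS4A1 were at 0 in all 6 libraries, and their summed level of 59.7 to 96.2 FPKM in siPOU2F1 and 52.7 to 93.3 FPKM in sicontrol was mostly CD74.

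None of the MHC class I presentation genes passed the test with all 6 libraries. Of the 9, 6 had a mean of at least 1 FPKM and were tested, and 0 were called at an adjusted p under 0.05, where 1.24% of the 11831 tested genes were called (limma), 0.397% higher and 0.845% lower. At an unadjusted p under 0.05 there was 1, HLA-E, against 18.1% of all tested genes. Their median log2 fold change was -0.11, and that of all tested genes was -0.013. The largest differences were a lower mean of HLA-C, a lower mean of TAP2 and a higher mean of HLA-E. Without siPOU2F1 replicate 3, HLA-C was called lower, 1 of 6 tested, where 15.8% of all tested genes were called lower, 9.48% higher and 25.3% in either direction. Without both that library and sicontrol replicate 2, the pair that correlated across groups, HLA-C was again the 1 gene called lower, where 14.6% of all tested genes were called lower, 8.94% higher and 23.5% in all. With a weight fitted to each library, HLA-C was called lower and HLA-E higher (limma adjusted p = 0.00768 and 0.00964), in a fit that called 28.0% of all tested genes lower, 22.4% higher and 50.4% in all.

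**Figure D1:**
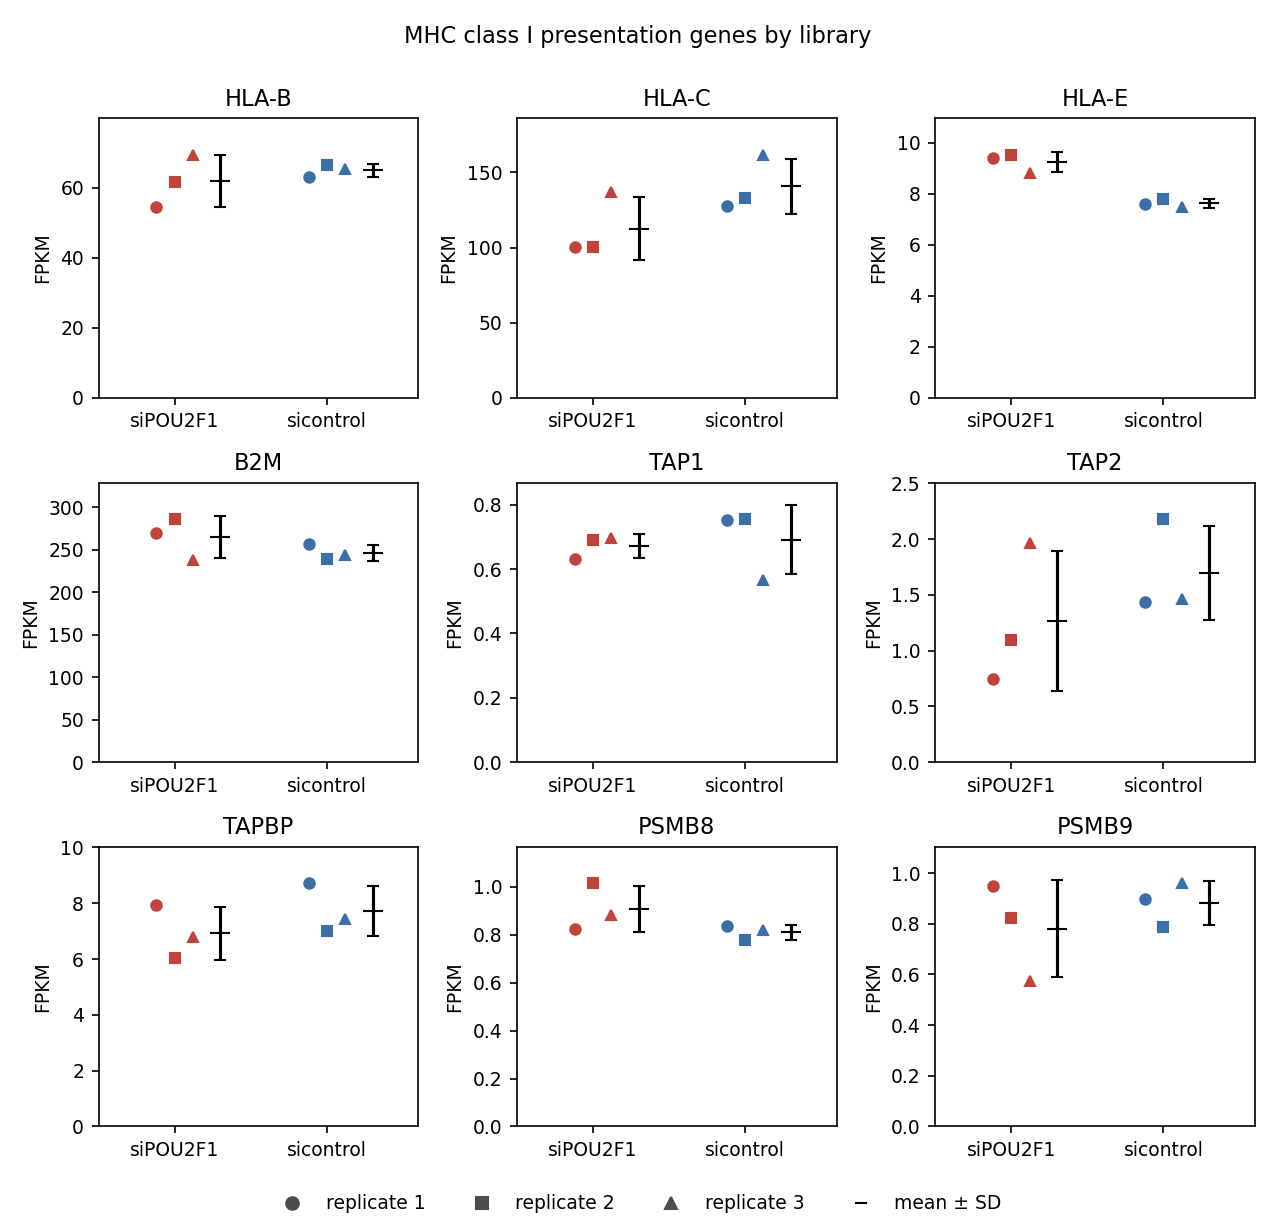
Level of each gene in FPKM (vertical axes, from 0) in the 3 siPOU2F1 libraries (red, left) and the 3 sicontrol libraries (blue, right), with symbols for replicate number and bars for mean ± SD. HLA-E is the gene whose groups do not overlap, and siPOU2F1 replicate 3 (triangle) lies near or among the sicontrol libraries for HLA-C, B2M and TAP2.

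The levels fell into an abundant group (B2M, HLA-C and HLA-B) and a scarce group (TAP2, PSMB8, PSMB9 and TAP1), with HLA-E and TAPBP between them. Over the 6 libraries B2M was highest at 238 to 286 FPKM, followed by HLA-C at 100.5 to 162 FPKM, HLA-B at 54.5 to 69.4 FPKM and HLA-E at 7.49 to 9.54 FPKM. TAPBP (6.04 to 8.71 FPKM) overlapped HLA-E. TAP2 (0.744 to 2.18 FPKM), PSMB8 (0.777 to 1.01 FPKM), PSMB9 (0.573 to 0.959 FPKM) and TAP1 (0.567 to 0.756 FPKM) each overlapped the gene next to it in the order, so their order was not resolved. B2M ranked 190 and HLA-C 439 of 20474 annotated genes by mean level, whereas TAP1 ranked 12303. These are levels per length and can be compared between genes, within the limits of mapping to the MHC.

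HLA-C, a classical heavy chain, measured 100.5, 100.6 and 137 FPKM in siPOU2F1 replicates 1 to 3, against 128, 133 and 162 FPKM in sicontrol replicates 1 to 3. Replicates 1 and 2 of siPOU2F1 lay below every sicontrol library, replicate 3 lay among them, and so the groups overlapped. The mean was 113 ± 20.9 FPKM in siPOU2F1 and 141 ± 18.4 FPKM in sicontrol (SD, n = 3 each). The log2 fold change was -0.33 (SE 0.16, 95% interval -0.70 to 0.046, limma adjusted p = 0.321). Against the sicontrol mean of log2 values the 3 siPOU2F1 libraries stood at -0.48, -0.47 and -0.033. Without siPOU2F1 replicate 3 the log2 fold change was -0.48 (SE 0.12, limma adjusted p = 0.0337), and over the other fits that left out 1 library the lowest adjusted p was 0.481.

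HLA-B, the other classical heavy chain, measured 54.5, 61.6 and 69.4 FPKM in siPOU2F1 libraries, against 62.9, 66.6 and 65.4 FPKM in sicontrol libraries. The siPOU2F1 libraries spanned the sicontrol range on both sides. Its log2 fold change was -0.077 (SE 0.11, 95% interval -0.34 to 0.19, limma adjusted p = 0.718), and it was 0.0098 without siPOU2F1 replicate 1, so its direction rested on that library.

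HLA-E, the nonclassical heavy chain, measured 9.43, 9.54 and 8.80 FPKM in siPOU2F1 libraries, against 7.59, 7.81 and 7.49 FPKM in sicontrol libraries. Every siPOU2F1 library lay above every sicontrol library. This made HLA-E the 1 gene of the 6 tested whose groups did not overlap, where 11.3% of all tested genes were higher without overlap, 12.0% lower and 23.4% either way. The mean was 9.26 ± 0.398 FPKM in siPOU2F1 and 7.63 ± 0.166 FPKM in sicontrol (SD, n = 3 each), which is 121% of control. Its log2 fold change of 0.26 (SE 0.11, 95% interval 0.0080 to 0.52) did not pass over all genes (limma adjusted p = 0.263, and 0.0787 without siPOU2F1 replicate 3).

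Summed over these 3 heavy chains, the level was 164, 172 and 215 FPKM in siPOU2F1 libraries and 198, 207 and 235 FPKM in sicontrol libraries. HLA-C made up 61.1%, 58.6% and 63.6% of that sum in siPOU2F1 and 64.4%, 64.1% and 69.0% in sicontrol. HLA-E made up 5.73%, 5.56% and 4.09% in siPOU2F1 and 3.83%, 3.77% and 3.19% in sicontrol. HLA-B made up 33.1%, 35.9% and 32.3% in siPOU2F1 and 31.7%, 32.2% and 27.9% in sicontrol. All 3 sets of shares were separate between the groups, HLA-C lower and HLA-B and HLA-E higher in siPOU2F1. The shares of a library are parts of the same whole, so they do not move independently. They were looked at after the values were seen and carry no test.

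The heavy chains resemble each other, so reads can be shared. In GENCODE transcripts, 6.71% of the 50-base words of HLA-C, 5.13% of those of HLA-E and 2.40% of those of HLA-B were also present in a transcript of another gene. The HLA-B transcript used (1089 bases) had no annotated 3′ UTR, whereas those of HLA-C (1554 bases) and HLA-E (2601 bases) had one. These shares are thus not of like sequence. How the deposited values divided such reads is not given, and their part in these levels was not tested.

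B2M, the light chain, measured 270, 286 and 238 FPKM in siPOU2F1 libraries, against 257, 239 and 243 FPKM in sicontrol libraries. Replicates 1 and 2 of siPOU2F1 were above all sicontrol libraries and replicate 3 was below them. The log2 fold change was 0.099 (SE 0.10, 95% interval -0.14 to 0.34, limma adjusted p = 0.599), and 0.17 without siPOU2F1 replicate 3 (adjusted p = 0.174). None of the 50-base words of B2M was shared with another gene.

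**Figure D2:**
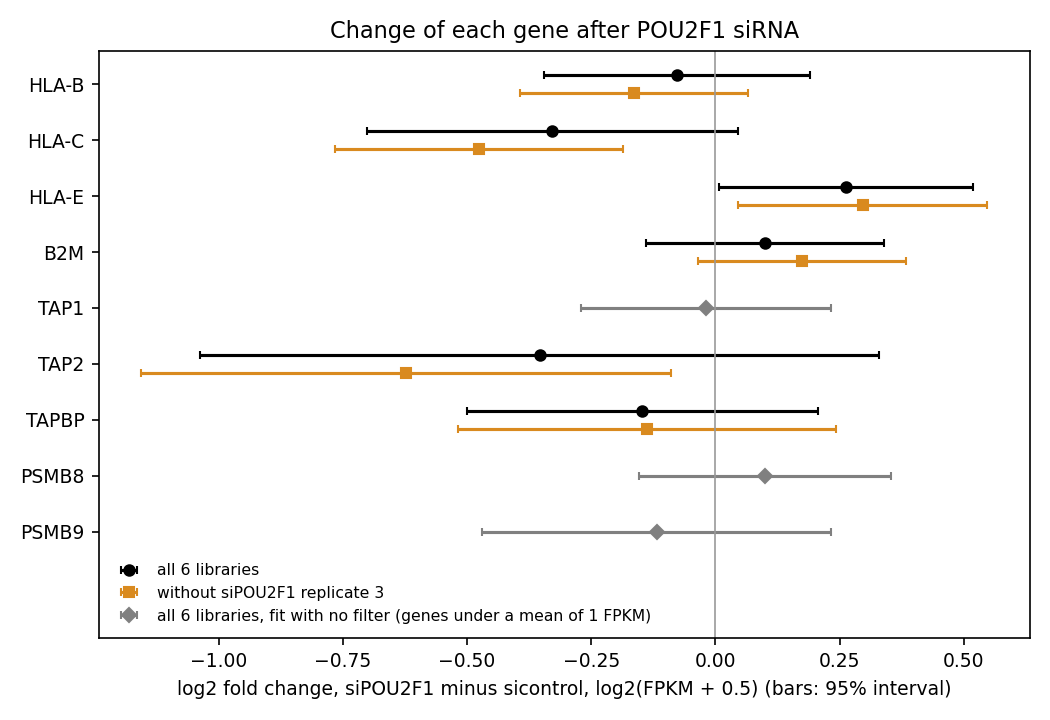
Log2 fold change (siPOU2F1 minus sicontrol, on log2(FPKM + 0.5)) of each gene with its 95% interval, for all 6 libraries (black), without siPOU2F1 replicate 3 (orange), and, for the 3 genes under a mean of 1 FPKM, from a fit with no filter (grey). HLA-C has -0.33 with all libraries and -0.48 without that replicate, and the interval of TAP2 is the widest.

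Tapasin is the bridge between TAP and the empty heavy chain. TAPBP measured 7.95, 6.04 and 6.78 FPKM in siPOU2F1 libraries, against 8.71, 6.99 and 7.42 FPKM in sicontrol libraries. The groups overlapped, and the log2 fold change was -0.15 (SE 0.15, 95% interval -0.50 to 0.21, limma adjusted p = 0.597). It was -0.060 without siPOU2F1 replicate 2, -0.061 without sicontrol replicate 1, -0.24 without siPOU2F1 replicate 1 and -0.32 with library weights (adjusted p = 0.0665), so its size rested on single libraries.

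TAP2, a subunit of the peptide transporter, measured 0.744, 1.10 and 1.96 FPKM in siPOU2F1 libraries, against 1.44, 2.18 and 1.46 FPKM in sicontrol libraries. Replicates 1 and 2 of siPOU2F1 were below all sicontrol libraries, and replicate 3 was above sicontrol replicates 1 and 3. The log2 fold change was -0.35 (SE 0.29, 95% interval -1.04 to 0.33, limma adjusted p = 0.516), and -0.62 without siPOU2F1 replicate 3, a fit that tested it through its sicontrol level alone. Removing sicontrol replicate 2 gave -0.20, and removing siPOU2F1 replicate 1 gave -0.13, so its size rested on single libraries. A neighbouring gene, ENSG00000250264, covers 32.3% of the exonic bases of TAP2 on the same strand, and 35.6% of the 50-base words of TAP2 occurred in other transcripts. That neighbour averaged 0.159 FPKM in siPOU2F1 and was listed at 0 in sicontrol, and how reads were divided was not tested.

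TAP1, the other transporter subunit, measured 0.631, 0.692 and 0.696 FPKM in siPOU2F1 libraries, against 0.752, 0.756 and 0.567 FPKM in sicontrol libraries. PSMB8 measured 0.825, 1.01 and 0.882 FPKM in siPOU2F1 libraries, against 0.838, 0.777 and 0.819 FPKM in sicontrol libraries. PSMB9 measured 0.949, 0.821 and 0.573 FPKM in siPOU2F1 libraries, against 0.897, 0.789 and 0.959 FPKM in sicontrol libraries. The groups overlapped for each of these 3 interferon-inducible genes, and all lay below the level tested. A fit with no filter on low values, over 17365 genes, gave log2 fold changes of -0.020 for TAP1, 0.10 for PSMB8 and -0.12 for PSMB9, with limma adjusted p of 0.942, 0.669 and 0.716. Their 95% intervals reached from -0.27 to 0.23, from -0.15 to 0.35 and from -0.47 to 0.23, on a scale that compresses changes at this level.

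Ratios within a library compared each immune gene with its counterpart. PSMB8 was at 1.21% of the level of PSMB5 in siPOU2F1 and 1.04% in sicontrol, and PSMB9 was at 0.552% of PSMB6 in siPOU2F1 and 0.639% in sicontrol. PSMB10, the third immune subunit, was far more abundant, at 13.1% of PSMB7 in siPOU2F1 and 14.8% in sicontrol (ratios of group means). PSMB10 itself measured 18.5, 18.1 and 28.3 FPKM in siPOU2F1 and 24.2, 32.9 and 26.4 FPKM in sicontrol (log2 fold change -0.37, limma adjusted p = 0.358, and 0.0303 without siPOU2F1 replicate 3). Without that library 15.8% of all tested genes were called lower. TAP1 stood at 53.1% of TAP2 in siPOU2F1 and 40.9% in sicontrol.

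With all 6 libraries and a pseudocount of 0.5, none of the 6 log2 ratios separated the groups. Each was compared with an exact two-sided permutation test, whose smallest possible p is 0.1 for 3 libraries against 3, and the p-values lay between 0.3 and 0.7 (0.48 to 0.7 after Benjamini-Hochberg adjustment over the 6). The largest differences were 0.33 for TAP1 over TAP2 and 0.32 for B2M over the summed heavy chains. With a pseudocount of 0.1, PSMB8 over PSMB5 reached that smallest p of 0.1. Without siPOU2F1 replicate 3 the groups were also separate for PSMB8 over PSMB5 (0.23), PSMB10 over PSMB7 (-0.38) and B2M over heavy chains (0.51). Each of these had the smallest possible exact permutation p of 0.1. TAP1 over TAP2 was separate in that setting as well (0.59), at an exact permutation p of 0.2. TAP1 over PSMB9, transcribed away from each other from their RefSeq starts, had a log2 ratio of -0.12 ± 0.259 in siPOU2F1 and -0.22 ± 0.213 in sicontrol (SD, n = 3 each). The log2 ratio of B2M to heavy chains was 0.71, 0.74 and 0.14 in siPOU2F1 replicates 1 to 3, against 0.37, 0.20 and 0.052 in sicontrol replicates 1 to 3. In siPOU2F1 replicates 1 and 2 it was above every sicontrol library, and in replicate 3 it was among them.

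**Figure D3:**
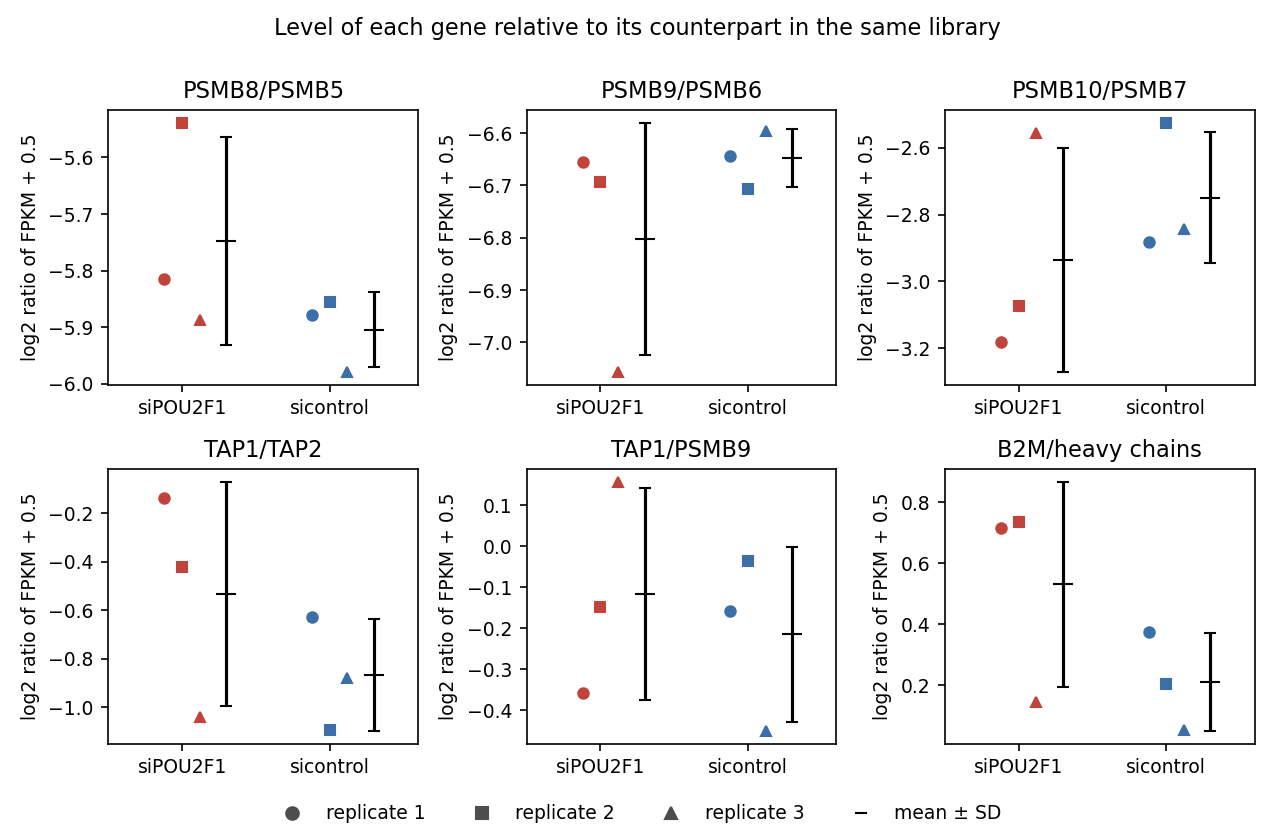
Log2 ratio of FPKM + 0.5 of each gene to its counterpart in the same library (vertical axes, which do not start at 0), in siPOU2F1 (red, left) and sicontrol (blue, right), with bars for mean ± SD. The groups overlap in all 6 panels, and siPOU2F1 replicate 3 (triangle) lies among or beyond the sicontrol libraries.

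The 6 tested genes lay at different distances from their mean pattern. That mean log2 profile, centred over the 6 libraries, ran from -0.13 in siPOU2F1 replicate 1 to 0.082 in siPOU2F1 replicate 3. HLA-B differed from that profile by a root mean square of 0.046, against 0.17 for B2M and for TAPBP, 0.18 for HLA-C, 0.20 for HLA-E and 0.30 for TAP2. Among 8690 other genes with at least 5 FPKM, the nearest to the mean profile were RPS6KB2, PFDN1, APRT, NUP43 and UQCR11, with differences of 0.018 to 0.025, where the median gene had 0.21. Likeness was measured over 6 libraries and says nothing of shared function.

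The rest of the pathway was read from 8 lists of genes grouped by role, 78 of them tested. Over all 6 libraries 0 were called (limma), and 17 had an unadjusted p under 0.05 (21.8%, where all tested genes had 18.1%). MICB, 1 of the 17, was tested through its sicontrol level alone and carries no weight. It is still counted in the 17 and the 78, which raises the 21.8%. Without siPOU2F1 replicate 3, 1 was called higher and 22 lower of 79 tested (29.1%, where all tested genes had 25.3%). By direction these were 1.27% higher and 27.8% lower, where all tested genes had 9.48% higher and 15.8% lower. The lists were chosen with earlier results of these data known, so the differences between these shares carry no test. Of the 22 lower genes, MICB and RAET1E reached a mean of 1 FPKM through their sicontrol levels alone, so their calls carry no weight. Both are still counted in the 22 and the 79, which raises the 29.1% called and the 27.8% called lower.

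The regulators of class I transcription had a median of -0.28, with 12 of 17 members negative. Without siPOU2F1 replicate 3 their median was -0.37, where that of all tested genes was -0.035. IRF1, an activator of the class I and TAP1 promoters, measured 27.1, 27.3 and 54.9 FPKM in siPOU2F1 libraries, against 69.8, 70.6 and 54.4 FPKM in sicontrol libraries (log2 fold change -0.90, limma adjusted p = 0.172). Replicate 3 of siPOU2F1 was again at the level of a sicontrol library. Without it, 7 of the 17 (41.2%) were called lower, where 15.8% of all tested genes were, among them IRF1 (limma adjusted p = 0.00528). The list was chosen with earlier results of these data known, and the library left out was the one that resembled a sicontrol library. The difference between these shares therefore carries no test. NLRC5, the class I transactivator, was below the level tested, at 0.812, 0.878 and 0.480 FPKM in siPOU2F1 and 0.765, 0.831 and 0.992 FPKM in sicontrol.

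Among 10 genes of interferon signalling the median was -0.11, with 6 negative. IFNAR1, a subunit of the type I interferon receptor, measured 21.7, 23.3 and 27.6 FPKM in siPOU2F1 libraries, against 37.0, 37.5 and 32.0 FPKM in sicontrol libraries, without overlap (-0.55, SE 0.13, limma adjusted p = 0.103, and 0.0122 without siPOU2F1 replicate 3). Of all tested genes 12.0% were lower without overlap, and 15.8% were called lower without siPOU2F1 replicate 3. PTPN2, a phosphatase that dampens cytokine signalling, had -0.47 (adjusted p = 0.200), with 32.2, 30.9 and 31.5 FPKM in siPOU2F1 and 49.7, 49.6 and 34.1 FPKM in sicontrol.

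The loading chaperones had a median of -0.25, with 6 of 7 negative. Without siPOU2F1 replicate 3 their median was -0.46, where that of all tested genes was -0.035. In that fit CALR was called higher and HSPA5 lower, where 9.48% of all tested genes were called higher and 15.8% lower. CALR, the chaperone that holds the heavy chain in the loading complex, measured 232, 209 and 170 FPKM in siPOU2F1 libraries, against 144, 143 and 170 FPKM in sicontrol libraries (0.41, SE 0.14, limma adjusted p = 0.197, and 0.0198 without siPOU2F1 replicate 3). Its lowest siPOU2F1 library was just above its highest sicontrol library, where 11.3% of all tested genes were higher without overlap. CANX, the chaperone of the newly made heavy chain, had -0.49 (limma adjusted p = 0.341), and -0.25 without sicontrol replicate 2.

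The proteasome list, catalytic subunits and activators, had a median of -0.16 with 7 of 8 negative. PSMB7, a constitutive catalytic subunit, had -0.19 (limma adjusted p = 0.309) and PSME2, a subunit of the interferon-inducible activator PA28, had -0.22 (0.356, and 0.0419 without siPOU2F1 replicate 3). Of the cytosolic peptidases and translocon genes 8 of 10 were negative, with a median of -0.097. TPP2, which trims peptides made by the proteasome, measured 18.4, 18.6 and 20.3 FPKM in siPOU2F1 libraries, against 24.8, 27.2 and 26.0 FPKM in sicontrol libraries, without overlap (-0.43, SE 0.10, limma adjusted p = 0.10, and 0.0179 without siPOU2F1 replicate 3). Beside these, 12.0% of all tested genes were lower without overlap, and 15.8% were called lower without siPOU2F1 replicate 3. BLMH, a cytosolic aminopeptidase, had 0.30 (0.308).

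Genes of class I degradation and trafficking had a median of -0.13, with 7 of 10 negative, and the lowest p belonged to SUSD6 (-0.33, limma adjusted p = 0.268), which takes part in class I degradation, and SYVN1 (-0.29, 0.288, and 0.0453 without siPOU2F1 replicate 3), a ubiquitin ligase of the endoplasmic reticulum. Without that library 15.8% of all tested genes were called lower. Of the class II genes 3 of 12 were tested, CIITA (-0.32, 0.370), CD74 (0.24, 0.659) and HLA-DQB1 (0.083, 0.844), and HLA-DRA reached at most 0.0582 FPKM in any library.

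**Figure D4:**
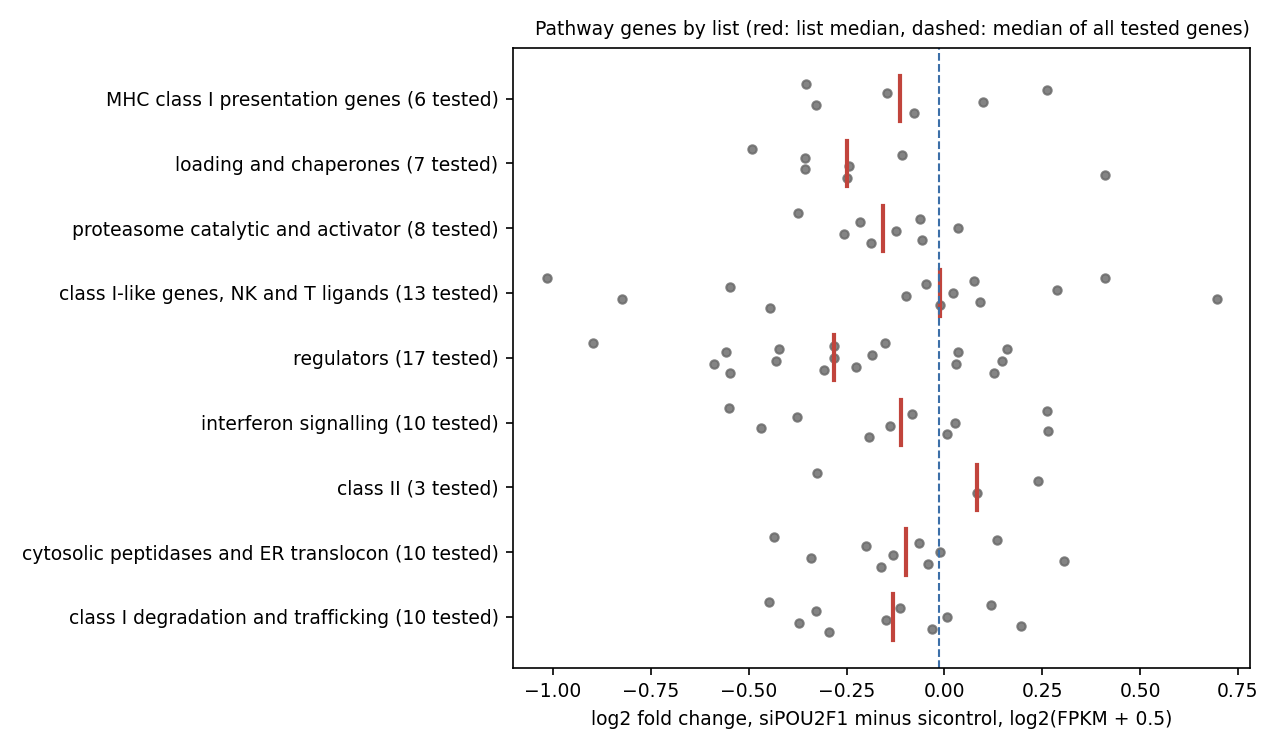
Log2 fold change (siPOU2F1 minus sicontrol, horizontal axis) of each tested gene in the MHC class I presentation genes and the 8 lists of related genes (grey points), with list medians (red) and the median of all tested genes (dashed blue). The medians lie between -0.28 for the regulators and 0.083 for the class II genes.

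The class I-like genes and ligands of natural killer and T cell receptors had a median of -0.012, with 6 of 13 positive. Some of them are ligands of the receptor NKG2D, which flag stressed cells to natural killer cells, and these went in both directions. ULBP1 measured 4.72, 5.01 and 7.14 FPKM in siPOU2F1 libraries, against 14.0, 12.0 and 9.52 FPKM in sicontrol libraries (-1.02, SE 0.20, 95% interval -1.50 to -0.54, limma adjusted p = 0.0714). MICB measured 0.658, 0.673 and 0.479 FPKM in siPOU2F1 libraries, against 1.48, 1.35 and 1.52 FPKM in sicontrol libraries. It averaged under 1 FPKM in siPOU2F1 and was tested through its sicontrol level alone, so its values are given with no test. For ULBP1 the groups did not overlap, where 12.0% of all tested genes were lower without overlap. Without siPOU2F1 replicate 3 ULBP1 was called lower (limma adjusted p = 0.00871), where 15.8% of all tested genes were.

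RAET1E, a further NKG2D ligand, was below the level tested with all 6 libraries and is named after its values were seen. It measured 0.0138, 0.0714 and 0.0665 FPKM in siPOU2F1 libraries, against 1.70, 1.33 and 2.04 FPKM in sicontrol libraries. It was called lower in the fit with no filter, where 0.276% of genes were called lower, 0.138% higher and 0.415% in all (log2 fold change -1.98, SE 0.14, limma adjusted p = 0.0226). An overlapping protein-coding gene, ENSG00000285991, covers 34.95% of its exonic bases on the same strand and averaged 0.683 FPKM in siPOU2F1 and 0.261 FPKM in sicontrol, so the division of reads between them is uncertain. It was tested without siPOU2F1 replicate 3 as well, through its sicontrol level alone. The other NKG2D ligands of the list that were tested had log2 fold changes of -0.55 (RAET1L), -0.44 (ULBP3), -0.098 (ULBP2), 0.077 (RAET1G) and 0.29 (MICA), with limma adjusted p of 0.322, 0.171, 0.828, 0.899 and 0.518.

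The words AACTGCA and AGAATGA had been picked from these same libraries because genes that hold them in the 3′ UTR were lower in siPOU2F1. Both were absent from the annotated 3′ UTR of 8 of the 9 genes, and the HLA-B transcript used had no annotated 3′ UTR. Over 11487 tested genes that could be searched, 11.9% held AACTGCA and 14.4% held AGAATGA. The absence is given without a test.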

How the data were processed

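For every library the authors deposited FPKM for 22782 features, of which 20474 were annotated genes and 2308 assembled transcripts not used here. Per the submitters' processing notes, StringTie 2.1.2, HISAT2 2.0.4 and Bowtie2 2.2.5 were used with hg38, with no role listed for each. Which annotation release, filters and strand setting applied is not given in the sources used here. A value depends on how reads shared by similar genes were divided, which bears on the MHC genes. No libraries held identical values. The tested values were log2(FPKM + 0.5) of the 11831 annotated genes averaging 1 FPKM or more, with no further scaling. The test was limma 3.58.1 (R 4.3.3) on group alone, with its mean-variance trend. P-values were adjusted by the Benjamini-Hochberg method over every tested gene, with 0.05 as the threshold. The fit was checked on simulated data, with 200 changed genes in each of 10 runs. It recovered 7.81% of genes changed by 0.5 log2, 53.1% at 1 and 85.9% at 2, and 5.04% of calls were false. Noise was drawn for each gene on its own, so a shift shared by many genes of a library was not simulated. Every tested member had a log2 fold change under 0.5 in size, a range where most changes would be missed. Depth is unknown beyond the relative values given, so no counting interval is given. Members and lists were chosen with earlier results of these data known. All 9 members are named, with POU2F1, the 2 lowest p of each list, the counterparts in the ratios, and the 5 genes of nearest profile, except 1 gene of the regulators list, which is not reported here. RAET1E, the other NKG2D ligands, HSPA5, NLRC5, HLA-DQB1, HLA-DRA and the cell type markers were named after their values were seen. Promoter windows came from RefSeq (GRCh38.p14), and positions, overlaps and transcript words of 50 bases from GENCODE release 29, using the basic transcript with the longest coding sequence. Ratios, tables and figures were made in Python 3.11.15 with scipy 1.17.1, pandas 2.3.3, numpy 2.4.6 and matplotlib 3.10.9.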

Additional observations from a re-analysis of the deposited data

How the results depend on the processing

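With other pseudocounts, median-of-ratios scaling, quantile normalization, a filter at 5 FPKM, no filter, no mean-variance trend or the replicate block, 0 of the MHC class I presentation genes were called (limma). Library weights called 1 higher, HLA-E (0.30, adjusted p = 0.00964), and 1 lower, HLA-C (-0.39, 0.00768), in a fit that called 2651 genes higher and 3312 lower over all genes (50.4% in all). Leaving out 1 library at a time gave 0 to 1 of them lower, 0 to 1120 genes higher and 0 to 1870 lower over all genes. No gene at all was called by limma without siPOU2F1 replicate 1, without siPOU2F1 replicate 2 or without sicontrol replicate 1 (1261, 1179 and 1331 genes at an unadjusted p under 0.05). They were 1 higher and 4 lower without sicontrol replicate 2, 4 higher and 5 lower without sicontrol replicate 3, and 1120 higher and 1870 lower without siPOU2F1 replicate 3. Without siPOU2F1 replicate 3 and sicontrol replicate 2, an alternative chosen after seeing the data, 1 of them was lower, again HLA-C (-0.51, 0.0407), with 1055 genes higher and 1721 lower over all genes. Genes called higher numbered 24 with no filter and 23 with no mean-variance trend, against 47 with the settings used, and genes called lower numbered 48 with no filter, against 100. The cause was not tested. HLA-B ranged from -0.16 to 0.0098 and the log2 ratio of TAP1 to PSMB9 from -0.038 to 0.22 when 1 library was left out.

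Replicate numbers did not pair the libraries: deviations from group means correlated at 0.13 for replicates 1, -0.54 for replicates 2 and -0.51 for replicates 3. With the replicate block, 0 genes were called higher and 0 lower over all genes (1208 at an unadjusted p under 0.05), and POU2F1 had a limma adjusted p of 0.297, against 0.0650 with no filter. The adjusted p of HLA-C was 0.482 and that of HLA-E 0.571 with the block. Depth limits what can be said of TAP1, PSMB8 and PSMB9, which lay under a mean of 1 FPKM.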
